A study of Mus musculus with 12 samples.

Results

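The carboxylesterases described here are 10 mouse genes chosen by name, Ces1b, Ces1c, Ces1d, Ces1e, Ces1f, Ces1g, Ces2a, Ces2c, Ces2e and Ces3a, out of 20 genes of the family in the annotation and 52636 annotated genes in all. All 10 passed a minimum mean count of 12 per library, as did 14 of the 20 family genes and 12453 of all genes. Their transcripts were followed in the liver of 12 male C57Bl/6J mice at 16 weeks of age, with 1 RNA-seq library from the left lateral lobe of each mouse.

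The 6 VDD-F1 mice were offspring of mothers that ate a diet without vitamin D before mating and during pregnancy, with calcium gluconate added to keep calcium balance. The 6 VDS-F1 mice were offspring of mothers on a nutrient-matched diet with sufficient vitamin D. The fathers of both groups ate control diet. All mothers ate the sufficient diet after delivery, as did the offspring of both groups after weaning. The groups thus differ in what the mother ate up to delivery and not in what the offspring ate as adults. By the paper's account, vitamin D stayed low in the deficient group's pups over about their first 2 weeks. A liver weight was recorded for VDD_4 to VDD_6 and VDS_3 to VDS_6, 7 mice in all, and for none of VDD_1 to VDD_3, VDS_1 and VDS_2. Both sets held both diets, with 3 VDD-F1 and 4 VDS-F1 mice in the first and 3 VDD-F1 and 2 VDS-F1 mice in the second. Body weights and stained liver sections of the mice, which the study also shows, were not used here. Litters, and why some weights were not recorded, are not given in the sources used here, so that p-values measure the spread between these mice, some of which may share a mother.

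Carboxylesterases are serine hydrolases that cut ester, thioester and amide bonds in drugs, pesticides and lipids. Most mouse members stay in the lumen of the endoplasmic reticulum of hepatocytes, where they meet both xenobiotics and stored neutral lipid, and at least Ces1c is released into blood plasma. Ces1d hydrolyses stored triacylglycerol and supplies lipid for very low density lipoprotein. The family arose by tandem duplication, so that close relatives sit side by side on the chromosome and share much of their sequence. The nuclear receptors CAR (Nr1i3) and PXR (Nr1i2), which sense foreign compounds, are known to induce several members in liver.

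All 10 genes lie on chromosome 8 of GRCm38 in a pair of clusters. Ces1b (ENSMUSG00000078964.2, chr8:93056728-93080017), Ces1c (ENSMUSG00000057400.14, chr8:93099015-93131283), Ces1d (ENSMUSG00000056973.6), Ces1e (ENSMUSG00000061959.13, chr8:93201218-93229619), Ces1f (ENSMUSG00000031725.8, chr8:93256236-93279747) and Ces1g (ENSMUSG00000057074.6) follow one another on the minus strand. Ces2a (ENSMUSG00000055730.16, chr8:104734003-104741634), Ces2c (ENSMUSG00000061825.10, chr8:104847068-104854483), Ces2e (ENSMUSG00000031886.14, chr8:104926260-104934672) and Ces3a (ENSMUSG00000069922.12, chr8:105048601-105058413) follow one another on the plus strand. The closest pair of coding sequences was Ces1b and Ces1c, at 88.7% identity. Next came the pairs within the Ces2 group, Ces2c and Ces2e at 83.6%, Ces2a and Ces2e at 83.1% and Ces2a and Ces2c at 82.4%. The deposited counts hold only fragments that map to 1 place, and a stretch that is identical in another gene gives none. Such stretches of 100 bases made up 13.6% of Ces2c, which shares them with the pseudogenes Ces2d-ps, Gm6831 and Gm8798, 8.13% of Ces2a, 6.88% of Ces3a, 1.29% of Ces1b and 1.03% of Ces1c. The other 5 members had none. Values for Ces2c, Ces2a and Ces3a are therefore the least certain between genes, while a comparison of the same gene between mice counts the same stretches in every library.

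The RefSeq table of promoter windows (GRCm38.p6, 250 bases before to 50 after a transcript start) held 7 of the 10 members, all but Ces1d, Ces1f and Ces3a. A stretch of 120 bases before and 10 bases from the start is shown for the adjacent pair with the closest coding sequences, Ces1b and Ces1c, with Ces1e beside them. Capitals mark the D-box TTATGTAA, a motif of PAR bZIP factors such as DBP, which the windows have in common.
Ces1b, chr8:93080008-93080137, minus strand: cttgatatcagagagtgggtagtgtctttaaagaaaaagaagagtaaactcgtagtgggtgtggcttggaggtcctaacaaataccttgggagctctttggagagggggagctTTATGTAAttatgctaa
Ces1c, chr8:93131274-93131403, minus strand: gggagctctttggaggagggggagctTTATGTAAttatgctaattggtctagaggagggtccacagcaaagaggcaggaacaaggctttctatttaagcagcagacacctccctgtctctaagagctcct
Ces1e, chr8:93229610-93229739, minus strand: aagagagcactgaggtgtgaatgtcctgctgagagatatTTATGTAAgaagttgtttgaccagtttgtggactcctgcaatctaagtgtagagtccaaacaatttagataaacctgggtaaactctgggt

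The Ces1b start used is the more upstream of 2 RefSeq starts and the one at the annotated end of the gene, and the other lies 77 bases downstream. The D-box was in the windows of 4 members, all in the Ces1 group (Ces1b, Ces1c, Ces1e and Ces1g), beginning at -7, -94, -81 and -232 from the start, and in 0.938% of the 32851 windows of all genes. The Ces1b and Ces1c windows aligned at 88.6% identity over 202 columns. Counted from the downstream start of Ces1b, the D-box began at -84. The same stretch is shown for Ces2a, Ces2c and Ces2e, the Ces2 genes among the members. Capitals mark GAACTTT, which is 1 of 2 runs of 7 bases, the other being TTCCTGC, that are the longest these stretches have in common.
Ces2a, chr8:104733883-104734012, plus strand: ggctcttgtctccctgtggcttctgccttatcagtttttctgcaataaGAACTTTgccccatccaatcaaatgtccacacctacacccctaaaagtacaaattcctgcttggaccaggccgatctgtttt
Ces2c, chr8:104846948-104847077, plus strand: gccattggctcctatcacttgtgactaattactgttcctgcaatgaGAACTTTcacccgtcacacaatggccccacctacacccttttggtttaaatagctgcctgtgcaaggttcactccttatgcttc
Ces2e, chr8:104926140-104926269, plus strand: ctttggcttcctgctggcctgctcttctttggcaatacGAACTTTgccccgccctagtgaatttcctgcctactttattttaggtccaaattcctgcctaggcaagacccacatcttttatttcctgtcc

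The windows of Ces2a and Ces2c aligned at 69.7% identity over 277 columns, well below Ces1b and Ces1c. Among 14 short motifs searched on both strands after the values were known, TTGCNNAA (bound by C/EBP factors) was in the windows of Ces1b, Ces1c, Ces2a and Ces2e and in 10.8% of all windows. The FOXA motif TGTTTGC was in Ces1b and Ces1c (5.07% of all windows), the nuclear receptor half-site AGGTCA in Ces2a (16.3%) and TATAAA in Ces1g (13.6%). No member's window held GGGTCA (13.7% of all windows), GTTAAT (7.10%), the full HNF1 site (0.00913%), TGTTTAC (3.65%), TGACNNNGC (12.4%), GCGTG (32.4%), CAAAGTCCA (0.475%), TTCNNNGAA (8.30%) or CACGTG (7.15%). These matches describe letters in a window and not binding.

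The libraries held 25897868 to 36403413 fragments, of which 14275793 to 20815066 were counted on genes of the reverse strand. The marker genes of hepatocytes summed to 97110 to 125300 CPM (counts relative to the TMM-scaled library size, set to a common total), so that the liver label held. VDD_2 stood apart with the largest sums of macrophage (564 CPM), stellate cell (1071 CPM), cholangiocyte (137 CPM) and lymphocyte markers (34.5 CPM). In the other 11 libraries these sums stayed at or below 491, 668, 97.5 and 14.9 CPM, and 7 of the 10 lymphocyte markers were at 0 in at least 1 library. VDS_6 had 11.1% of its fragments outside annotated genes, where the others had 2.52% to 4.94%. In bulk tissue, fewer cells of a type and less RNA per cell cannot be told apart.

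Compared per length of merged exons, the carboxylesterases spanned a wide range of levels. Ces1c, the plasma esterase, was highest at 875 ± 124 CPM per kb (SD, n = 12), followed by Ces3a, a mainly hepatic member, at 601 ± 117 and the lipid hydrolase Ces1d at 196 ± 63.2 CPM per kb. Each of these was above the next gene in 12 of 12 mice. Ces2a (123 ± 60.6 CPM per kb), Ces1f (113 ± 31.9), Ces1g (80.0 ± 21.6), Ces2e (69.2 ± 13.9) and Ces1e (66.2 ± 23.7) formed a middle group whose neighbours were not separated in every mouse. Ces2a was above Ces1f in 8 of 12 mice and Ces2e above Ces1e in 6 of 12. Ces1b (29.5 ± 12.5 CPM per kb) and Ces2c (14.3 ± 7.56 CPM per kb) were lowest, and Ces1b was above Ces2c in 11 of 12 mice. With the length of the longest transcript in place of merged exons, 6 of the 10 genes kept their rank, while Ces1f passed Ces2a and Ces1e passed Ces2e.

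**Figure D1:**
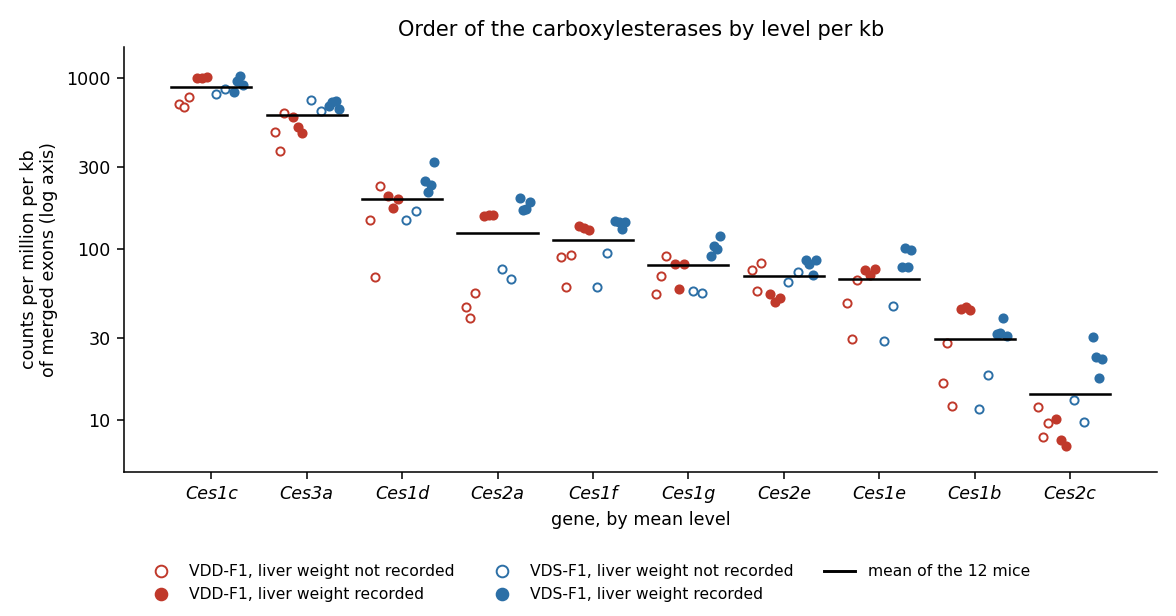
Level of each carboxylesterase in each of the 12 mice, in CPM per kb of merged exons on a log axis, with genes ordered by their mean (black line), VDD-F1 in red, VDS-F1 in blue, and open points for mice without a recorded liver weight. Ces1c, Ces3a and Ces1d stand above the rest, and the open points of Ces2a lie apart from its filled points.

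The members differed in how much they varied between mice. Ces2a varied most, with an SD of 0.87 in log2 CPM and a 5.03-fold range from the lowest to the highest mouse, and its SD was larger than that of 94.1% of the genes tested. Ces1b (SD 0.72) and Ces2c (0.70) came next. Ces1c was steadiest, with an SD of 0.21 and a 1.53-fold range, so that the most abundant member was also the least variable. Over the 12 mice the closest profiles among members were those of Ces1e and Ces1f, whose mean-centred log2 CPM differed by a root mean square of 0.193, and the most distant were Ces1b and Ces2c at 0.942.

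**Figure D2:**
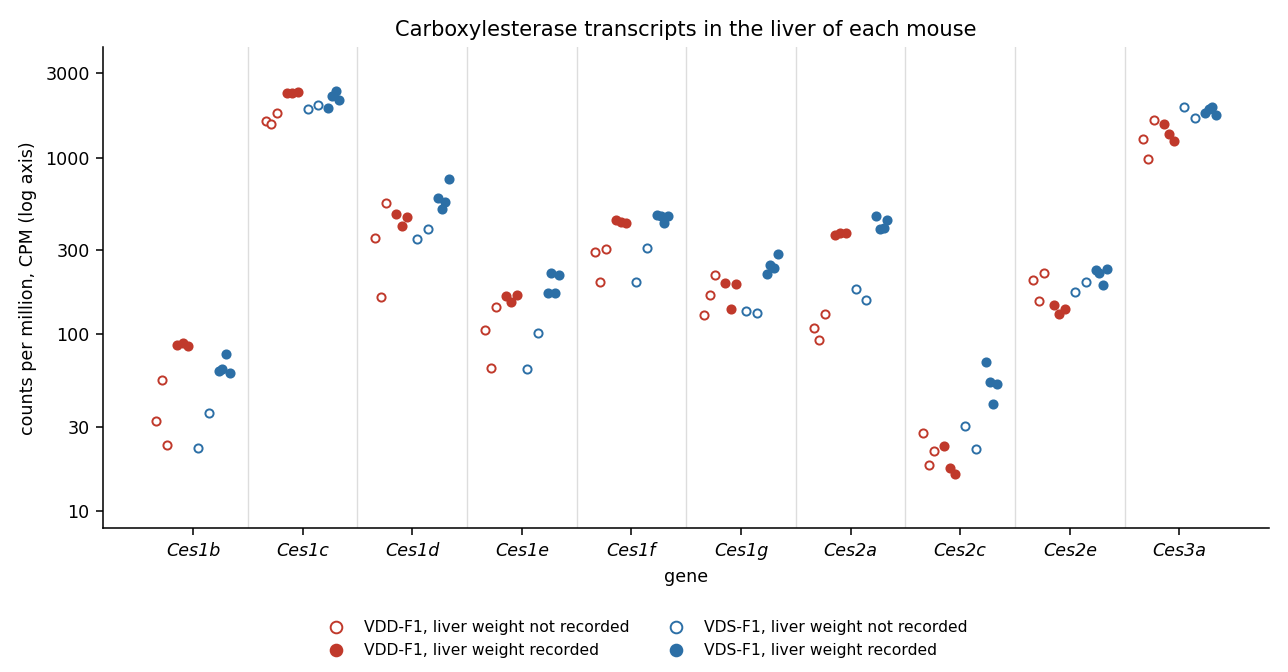
CPM of the 10 carboxylesterases in each mouse on a log axis, with VDD-F1 in red, VDS-F1 in blue, filled points for mice with and open points for mice without a recorded liver weight. For Ces2a the 7 filled points lie between 367 and 466 CPM and the 5 open points between 92.6 and 180.1 CPM, while Ces2c is high in the 4 filled blue points.

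The largest fitted difference among the carboxylesterases, that of Ces2a, lay between the 2 sets of mice. With diet in the model, Ces2a and Ces1b were higher in the recorded set and passed both thresholds, an adjusted p-value under 0.05 in edgeR's quasi-likelihood test and a log2-fold change beyond 1. These are 2 of 10 members, where 0.281% of the genes tested passed in that direction. Ces1f and Ces1e also passed the adjusted p-value at a smaller change, which makes 4 of 10 members against a background of 0.899%. The same 4 genes were those whose ranges did not overlap between the sets, higher in the recorded one, as was true of 0.891% of the genes tested. The median log2-fold change of the members was 0.47, and that of all genes was -0.01.

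Ces2a, a liver carboxylesterase that acts on drugs and lipids, stood at 108, 92.6 and 131 CPM in VDD_1 to VDD_3 and at 180.1 and 157 CPM in VDS_1 and VDS_2. Among mice with a recorded weight it stood at 367, 372 and 372 CPM in VDD_4 to VDD_6 and at 466, 395, 402 and 444 CPM in VDS_3 to VDS_6. Every mouse of the recorded set was above every mouse of the other, in both diets. The fitted level was 2.93-fold higher in the recorded set (log2-fold change 1.55, SE 0.11, adjusted p = 8.48e-06), and the p-value ranked 2 among 12453 genes. Without VDD_2 the log2-fold change was 1.48 (adjusted p = 2.35e-06).

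Ces1b stood at 32.4, 55.2 and 23.6 CPM in VDD_1 to VDD_3 and at 22.8 and 36.0 CPM in VDS_1 and VDS_2. With a recorded weight it stood at 87.1, 89.6 and 86.3 CPM in VDD_4 to VDD_6 and at 62.1, 63.2, 76.9 and 60.6 CPM in VDS_3 to VDS_6. The sets did not overlap, and within the recorded set the VDD-F1 mice were all above the VDS-F1 mice. Ces1b was 2.30-fold higher in the recorded set (log2-fold change 1.202, SE 0.18, adjusted p = 0.0031). Leaving out 1 mouse at a time gave log2-fold changes from 1.08 (without VDD_3) to 1.39 (without VDD_2). The adjusted p-value in edgeR was then at most 0.01305.

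Ces1f ranged from 196 to 309 CPM in the 5 mice without a recorded weight, with a median of 293, and from 425 to 474 CPM in the 7 mice with one, with a median of 444. Its log2-fold change was 0.79 (SE 0.13, adjusted p = 0.00602). Ces1e, known as egasyn for holding beta-glucuronidase in the endoplasmic reticulum, ranged from 63.2 to 143 CPM without and from 153 to 221 CPM with a recorded weight. Neither gene's ranges overlapped. The log2-fold change of Ces1e was 0.91 (SE 0.20, adjusted p = 0.0280), and its adjusted p-value stayed under 0.05 in 6 of 12 fits that each left out 1 mouse, with a range of 0.00492 to 0.0735. It rose above 0.05 without VDD_4, VDD_6, VDS_1, VDS_2, VDS_3 or VDS_4, and without VDD_3 Ces1e passed both thresholds at a log2-fold change of 1.09.

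The other members did not pass the adjusted p-value between the sets in edgeR, while DESeq2 also passed Ces1c (adjusted p = 0.00678), which makes 5 of 10 members with DESeq2 against 4.67% of the genes it tested. At an unadjusted p-value under 0.05 in edgeR there were 7 of 10 members, against 13.9% of the genes tested. Ces1c had a log2-fold change of 0.33 (SE 0.10, adjusted p = 0.105), Ces1d of 0.51 (SE 0.23, adjusted p = 0.335), Ces1g of 0.43 (SE 0.18, adjusted p = 0.286) and Ces2c of 0.35 (SE 0.24, adjusted p = 0.590). The value of Ces2c was 0.11 without VDS_2, 0.22 without VDS_1 and 0.70 with no diet term in the model. Ces2e (-0.15, SE 0.14) and Ces3a (0.06, SE 0.12) had values near 0. No cell marker passed the adjusted p-value between the sets in edgeR, while DESeq2 had 2 of 11 hepatocyte and 1 of 10 endothelial markers under 0.05. Macrophage markers had a lower fitted level in the recorded set in 10 of 10 genes (2 at an unadjusted p-value under 0.05), with sums of 231 to 378 CPM against 265 to 564 CPM, and endothelial markers a higher one in 9 of 10 (4 at an unadjusted p-value under 0.05), with sums of 462 to 581 CPM against 381 to 491 CPM. Hepatocyte markers overlapped, at 97110 to 125300 CPM against 107200 to 125300 CPM. The part of other cell types in the set difference was not tested.

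Between the diets over all 12 mice, 9 of the 10 carboxylesterases had a lower fitted level in VDD-F1 livers, and none passed both thresholds. The median log2-fold change was -0.30 for the members, against 0.00413 for all genes. In edgeR's test 5 genes in all passed, which is 0.0402% of the genes tested, and 3 of 10 members had an unadjusted p-value under 0.05, where 15.8% of all genes did. DESeq2 gave adjusted p-values under 0.05 to 2 members, Ces2c (0.000994) and Ces3a (0.00693), and to 4.05% of the genes it tested, and Ces2c alone of these members also passed the fold threshold. The 3 members in edgeR were Ces2c (log2-fold change -1.11, SE 0.24, adjusted p = 0.0812), Ces3a (-0.45, SE 0.12, adjusted p = 0.1004) and Ces2e (-0.32, SE 0.14, adjusted p = 0.273). Leaving out VDD_1 or VDS_2 brought Ces2c past both thresholds in edgeR, at adjusted p-values of 0.0209 and 0.0316, as did edgeR with no filter on low counts, at 0.0294. Stellate cell markers had a higher fitted level in VDD-F1 livers in 9 of 10 genes (6 at an unadjusted p-value under 0.05, 0 passed in edgeR and 3 in DESeq2, median log2-fold change 0.41) and sums of 347 to 1071 CPM against 324 to 510.3 CPM. Cholangiocyte markers had a higher fitted level in VDD-F1 in 6 of 7 genes, with a median log2-fold change of 0.60. Of these markers 3 had an unadjusted p-value under 0.05 in edgeR, and 0 passed in edgeR or DESeq2. Their sums overlapped, at 44.8 to 137 against 47.5 to 80.55 CPM. The part of other cell types in the diet difference was not tested.

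Ces3a was the member whose diet groups did not overlap, lower in VDD-F1, as 0.570% of the genes tested did. It stood at 1271, 981 and 1624 CPM in VDD_1 to VDD_3, at 1545, 1352 and 1247 CPM in VDD_4 to VDD_6, and between 1681 and 1932 CPM in the VDS-F1 mice, with a median of 1838 CPM. The gap between the groups was narrow, from 1624 to 1681 CPM. Its log2-fold change was close in both sets of mice, -0.41 (SE 0.16, adjusted p = 0.186) in the recorded and -0.48 (SE 0.18, adjusted p = 0.520) in the other. Without VDD_2, the lowest mouse, it was -0.37 over all mice (adjusted p = 0.149), without VDD_3 it was -0.51 (adjusted p = 0.0471), and without VDD_2 Ces3a passed the adjusted p-value in the recorded set (0.0368).

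Among the members, Ces2c had the largest diet difference, measured in the mice with a recorded liver weight. Ces2c, a hydrolase of lipids and drugs, stood at 27.5, 18.2 and 22.0 CPM in VDD_1 to VDD_3, at 23.4, 17.5 and 16.3 CPM in VDD_4 to VDD_6, and at 30.2 and 22.3 CPM in VDS_1 and VDS_2. In VDS_3 to VDS_6 it stood at 70.0, 53.7, 40.2 and 52.0 CPM. The 4 VDS-F1 mice of the recorded set were thus above all 8 other mice. In that set Ces2c was 2.84-fold lower in VDD-F1 (log2-fold change -1.51, SE 0.21, adjusted p = 0.00753), the only member to pass both thresholds there, where 0.602% of the genes tested passed in that direction. In the mice without a recorded weight the log2-fold change was -0.22 (SE 0.24, adjusted p = 0.849). Leaving out VDD_5 or VDD_6 raised the adjusted p-value in the recorded set above 0.05, to at most 0.0585.

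Ces2e, found in intestine as well as liver, stood at 146, 131 and 139 CPM in VDD_4 to VDD_6 and at 232, 221, 190.0 and 233 CPM in VDS_3 to VDS_6. In the other set it stood at 203, 154 and 223 CPM in VDD_1 to VDD_3 and at 173 and 197 CPM in VDS_1 and VDS_2. The 3 VDD-F1 mice of the recorded set were below all other 9 mice. In the recorded set its log2-fold change was -0.66 (SE 0.13, adjusted p = 0.0278), which makes 2 of 10 members lower at that adjusted p-value against 1.01% of the genes tested. DESeq2 passed the same 2 members at its adjusted p-value, against 6.16% of the genes it tested. This adjusted p-value stayed under 0.05 in 6 of 12 fits that each left out 1 mouse, with a range of 0.00102 to 0.1195, and rose above 0.05 without VDD_4, VDD_5, VDD_6, VDS_3, VDS_4 or VDS_6. In the mice without a recorded weight the value was 0.06 (SE 0.16).

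Within the recorded set, 7 members (Ces1d, Ces1e, Ces1g, Ces2a, Ces2c, Ces2e and Ces3a) had all 3 VDD-F1 mice below all 4 VDS-F1 mice, where 11.4% of the genes tested did. Ces1g, a hepatic lipid hydrolase, was among them at 195, 139 and 194 CPM in VDD_4 to VDD_6 against 218 to 285 CPM in VDS_3 to VDS_6 (log2-fold change -0.49, SE 0.17, adjusted p = 0.155). Ces1d stood at 410 to 479 CPM in VDD-F1 against 512 to 758 CPM in VDS-F1 mice of this set (log2-fold change -0.42, SE 0.29, adjusted p = 0.481). Ces1b went the other way without overlap (0.42, SE 0.23, adjusted p = 0.370), and Ces1c and Ces1f overlapped. Over 19 settings of the fit, Ces1g had an adjusted p-value under 0.05 in 2 and Ces1b in 1, none of them leaving out a mouse. Ces3a did in 2, of which 1 left out a mouse. Stellate cell markers were also unlike between these mice, with sums of 559 to 668 CPM in VDD-F1 and 324 to 407 CPM in VDS-F1, as were cholangiocyte markers at 74.0 to 97.5 against 47.5 to 66.9 CPM. Macrophage markers summed to 231 to 279 CPM in VDD-F1 and 299.9 to 378 CPM in VDS-F1, and hepatocyte markers to 119900 to 125300 against 97110 to 105200 CPM. Of single markers, Col3a1 (a fibrillar collagen) was higher in VDD-F1 (log2-fold change 2.16, SE 0.51, adjusted p = 0.0480), and Stab2 of sinusoidal endothelium was lower (-0.48, SE 0.10, adjusted p = 0.0286). The part of cell composition in these differences was not tested.

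In the mice without a recorded weight 0 members passed both thresholds in edgeR or DESeq2, and 4 genes in all passed in edgeR, 0.0321% of those tested. Ces2a and Ces3a had an unadjusted p-value under 0.05, 2 of 10 members where 8.07% of all genes did. Ces1c, Ces2a and Ces3a had all 3 VDD-F1 mice below both VDS-F1 mice, against 9.50% of the genes tested. Ces2a had the smallest p-value of the members there, with a log2-fold change of -0.61 (SE 0.15, adjusted p = 0.335). DESeq2 gave Ces2a an adjusted p-value of 0.0175, as the 1 member of 10 under 0.05 against 0.595% of the genes it tested, and edgeR with no filter on low counts gave Ces2a 0.0231. Over all 10 members, 5 fitted values were above and 5 below 0.

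**Figure D3:**
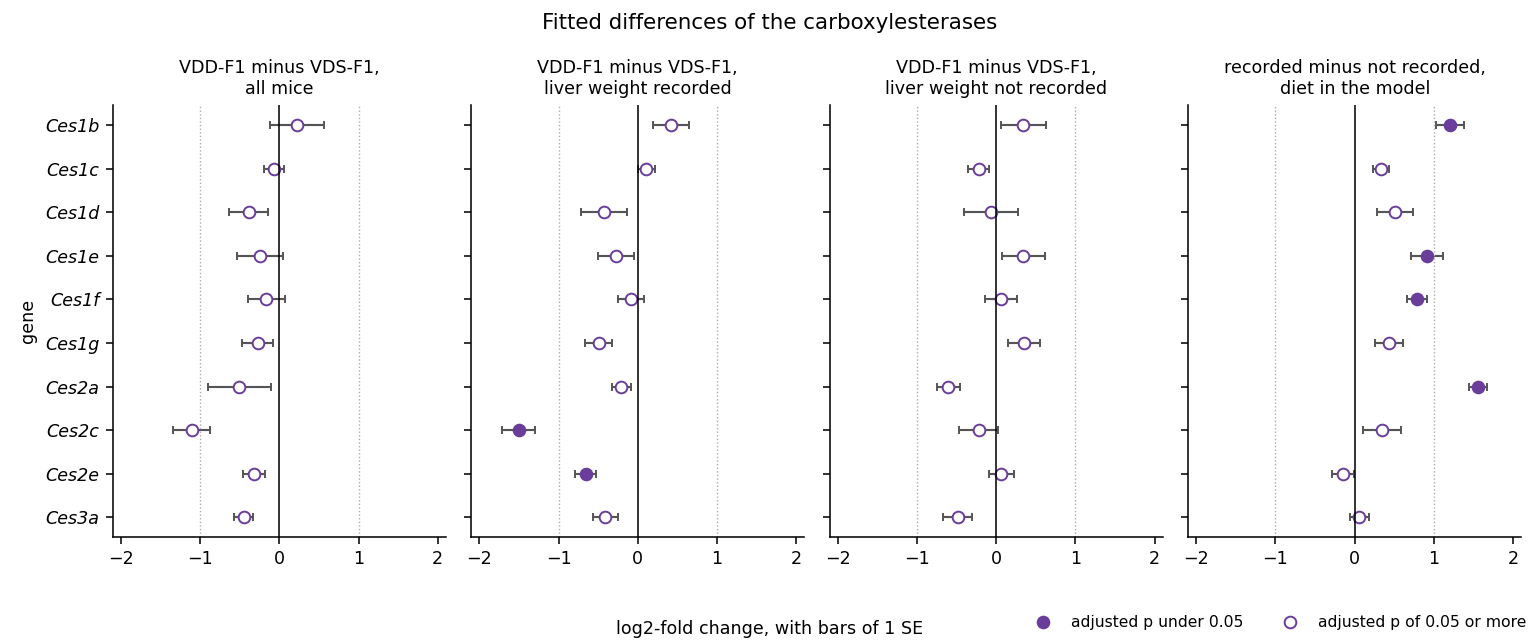
Fitted log2-fold changes of the 10 carboxylesterases with bars of 1 SE, for the diets over all mice, the diets within each set and the sets of mice, with filled points for an adjusted p-value under 0.05 and dotted lines at 1 and -1. Ces2c and Ces2e are filled for the diets in the recorded set, and Ces1b, Ces1e, Ces1f and Ces2a for the sets of mice.

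Whether the diet difference itself differed between the sets was tested with the interaction. In edgeR 0 members passed, and 10 genes in all passed, 0.0803% of those tested. An unadjusted p-value under 0.05 was found for 3 of 10 members and 9.01% of all genes. DESeq2's Wald test passed Ces2c at both thresholds (adjusted p = 0.0172), the 1 member with an adjusted p-value under 0.05 against 1.11% of the genes it tested. The 3 members in edgeR were Ces2c (recorded minus not recorded, -1.28, SE 0.32, adjusted p = 0.202), Ces2e (-0.72, SE 0.20, adjusted p = 0.277) and Ces1g (-0.84, SE 0.27, adjusted p = 0.343). Leaving out VDD_2 brought Ces2c to an adjusted p-value of 0.0294 and Ces2e to 0.0130. With no filter on low counts edgeR gave Ces2c 5.69e-05 and Ces1g 0.0191 over all 12 mice, so that this result turns on the filter and on the tool.

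The counts of 4 pairs with more than 82% coding identity were also set against each other within each library, where depth and scaling cancel. The pairs were looked at after the levels above were known, and their ratios follow from those levels, so that they are given as a description with no test. Ces1b had 0.0284 to 0.0389 counts for each count of Ces1c in the recorded set and 0.0122 to 0.0355 in the other, where VDD_2 was the highest. The log2 ratio was 0.94 higher in the recorded set when averaged within the diets, and leaving out 1 mouse at a time gave 0.77 to 1.13. Ces2a had 1.79 to 2.84 counts for each count of Ces2e in the recorded set and 0.534 to 1.04 in the other. The log2 ratio was 1.66 higher in the recorded set, with 1.56 to 1.76 when 1 mouse was left out. Every mouse of the recorded set had more Ces2a than Ces2e counts, and in the other set VDS_1 was the only mouse that did.

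Ces2a to Ces2c ranged from 6.65 to 22.9 in the recorded set and from 3.95 to 7.03 in the other. The difference of the log2 ratio was 1.15, made of 1.996 in the VDD-F1 mice and 0.31 in the VDS-F1 mice. Ces2c to Ces2e was 0.51 higher on the log2 scale in the recorded set. Averaged within the sets, its log2 ratio in VDD-F1 minus that in VDS-F1 mice was -0.55. It was -0.84 in the recorded and -0.27 in the other set. For Ces1b to Ces1c the difference between the diets was 0.31 in the recorded and 0.50 in the other set. It had opposite signs in the sets for Ces2a to Ces2c, at 1.29 and -0.39, and for Ces2a to Ces2e, at 0.45 and -0.67 in the same order.

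**Figure D4:**
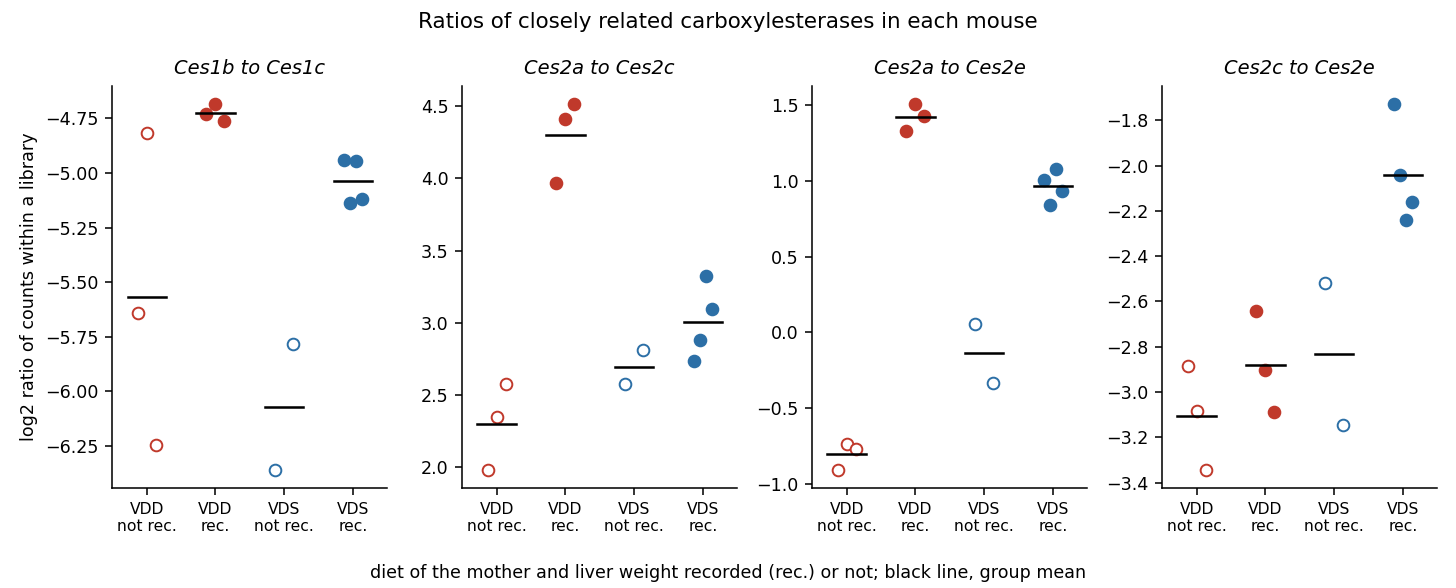
Log2 ratio of the counts of closely related carboxylesterases within each library, by the diet of the mother and whether a liver weight was recorded, with each point 1 mouse and black lines for group means. The ratio of Ces2a to Ces2e is above 0 in all 7 mice with a recorded weight, and that of Ces2c to Ces2e is highest in the 4 VDS-F1 mice of that set.

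Together the 10 genes took 0.595% ± 0.0321 (SD, n = 7) of the counted fragments in mice with a recorded weight and 0.446% ± 0.0437 (SD, n = 5) in the others. These shares are sums dominated by Ces1c and Ces3a, and they ranged from 0.550% to 0.637% and from 0.392% to 0.4928%. Split by diet, the share was 0.492% ± 0.0838 (SD, n = 6) for the VDD-F1 group, against 0.574% ± 0.0689 (SD, n = 6) for the VDS-F1 group.

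The rest of the family was scarce in liver apart from Ces3b and Ces2g. Of the 10 further genes 4 were tested, and all 4 had a lower fitted level in VDD-F1 without passing the adjusted p-value in edgeR (3 of 4 had an unadjusted p-value under 0.05 and 3 of 4 passed in DESeq2, where 15.8% and 4.05% of all genes did). Ces3b, which shares sequence with Ces3a, ranged from 152 to 306 CPM in VDD-F1 and from 287 to 446 CPM in VDS-F1 mice (log2-fold change -0.54, SE 0.15, adjusted p = 0.118). Ces2b, at no more than 2.52 CPM in any mouse, had a log2-fold change of -2.24 (SE 0.63, adjusted p = 0.118), and Ces4a, at no more than 3.30 CPM, of -1.33 (SE 0.41, adjusted p = 0.137). The study chose Ces2b and Ces4a as differentially expressed on these same samples, so their direction is not independent. Ces2g had a log2-fold change of -0.23 (SE 0.13, adjusted p = 0.408). Their median was -0.94. Ces1a, Ces1h, Ces2d-ps, Ces2f, Ces2h and Ces5a did not reach the minimum count, and Ces5a had no count in any library.

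Among 14 listed nuclear receptors and partners, which include the enzyme Por, all 14 had a lower fitted level in VDD-F1 over the 12 mice. In edgeR 0 passed the adjusted p-value and 3 had an unadjusted p-value under 0.05, against the same 15.8% of all genes. DESeq2 passed 1, against the same 4.05% of all genes. Their median log2-fold change was -0.21. In the recorded set Nr1i3, the receptor CAR, fell by 1.68 on the log2 scale (SE 0.38, adjusted p = 0.0417), alone of the 14 in edgeR, while DESeq2 passed 6 of the 14 against 6.16% of all genes. Between the sets Ahr, the dioxin receptor, was the one that passed in edgeR, lower in the recorded set (-0.59, SE 0.14, adjusted p = 0.0390), while DESeq2 passed 2 of the 14 against 4.67% of all genes. Of 14 other lipid hydrolases 0 passed between the diets over all mice in edgeR, and the 2 with an unadjusted p-value under 0.05, close to the share of all genes, had opposite signs. They were hepatic lipase, Lipc (log2-fold change -0.52, SE 0.12, adjusted p = 0.0855), and lipoprotein lipase, Lpl (2.14, SE 0.52, adjusted p = 0.0918), and DESeq2 passed 2 of the 14. Within the recorded set Lipc (-0.67, SE 0.15, adjusted p = 0.0423), and the cholesteryl ester hydrolase Nceh1 (-0.89, SE 0.21, adjusted p = 0.0454) were lower in VDD-F1 in edgeR, while DESeq2 passed 4 of the 14. Between the sets the lipid droplet protein Pnpla3 was lower in the recorded set by a log2-fold change of -3.56 (SE 0.59, adjusted p = 0.00595). Of 13 genes of triglyceride synthesis and lipoprotein assembly, 0 passed between the diets in edgeR (2 at an unadjusted p-value under 0.05, 0 passed in DESeq2, no more than the share of all genes). Between the sets, in edgeR, Gpat4 was higher (0.59, SE 0.10, adjusted p = 0.00602) and Gpam, the mitochondrial acyltransferase, lower (-1.32, SE 0.32, adjusted p = 0.0481) in the recorded set.

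For the 3 most variable members, the genes with the closest profile over the 12 mice were found by the root mean square difference of mean-centred log2 CPM. For Ces2a they were Akr1c19 (0.316), an aldo-keto reductase, Keg1 (0.321) and Gstp1 (0.353), a glutathione transferase. Akr1c19 averaged 66.7 and 70.6 CPM in VDD-F1 and VDS-F1 mice with a recorded weight and 25.9 and 24.0 CPM in those without. For Ces1b they were Fam25c (0.219), Cryl1 (0.268) and Gstm1 (0.273), another glutathione transferase, which averaged 2219 and 1881 CPM with and 1204 and 851 CPM without a recorded weight in the same order. For Ces2c they included Mief2 (0.356) and Aatk (0.359), both highest on average in the VDS-F1 mice of the recorded set, where Mief2 averaged 20.1 CPM against 10.5 to 15.6 CPM in the other 3 groups. None of the genes named here is on chromosome 8.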

How the data were processed

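Liver RNA of 12 mice was sequenced after removal of ribosomal RNA. Per the paper's methods, adapters were trimmed and reads were placed on mm10 with STAR by the authors, who deposited the resulting counts (fragments on each gene of GENCODE M15, GRCm38) unnormalized, for no strand and for each strand. STAR's version is not given in the sources used here. The reverse-strand count was used, which held 92.7% to 95.8% of stranded counts, and forward counts were at most 1.48% of any member's. Symbols, positions and lengths came from GENCODE M21 (GRCm38), which matched 52403 of 52636 genes.

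After a filter at a mean count of 12, differences were tested with edgeR 4.0.16 in R 4.3.3 (TMM, quasi-likelihood, legacy form, Benjamini-Hochberg adjustment over 12453 genes). Genes were called at adjusted p-values below 0.05 where the log2-fold change was beyond 1. The models held diet alone, diet and set, or 1 mean for each of the 4 diet and set groups. The sets were read from the study's supplement and are not in the GEO labels. The study itself used DESeq2, here an alternative (DESeq2 1.42.0). CPM values are TMM-scaled. Ratios of counts are described without a test, and the choice of pairs and of the motifs followed a first look at the data. The scripts were tested on simulated data. Sequence work used Biopython, and figures matplotlib.

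The members and lists were chosen with earlier results of these data known. Named are the 10 members, up to 4 genes per list with the smallest p-values, Ces2b and Ces4a, and the 3 closest profiles to each of the 3 most variable members. Some genes that this rule names are not reported here. Same-numbered mice of the 2 diets are different animals, and their deviations correlated at -0.0762 to 0.103. The scarcest tested member, Ces2c, had 292 to 1033 counts per library.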

Additional observations from a re-analysis of the deposited data

How the results depend on the processing

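Over the alternatives other than leaving out a mouse, no member's fitted log2-fold change changed sign. The count of carboxylesterases called between the diets rose from 0 to 1 (Ces2c) with DESeq2's Wald test, at an adjusted p of 0.000994, and to 1 with no filter on low counts, at 0.0294. The interaction count likewise rose from 0 to 1 (Ces2c) with DESeq2's Wald test, at 0.0172, and with no filter. Counts without strand, DESeq2 size factors, a minimum total count of 12 and the robust fit changed no call of a member, nor did the set of mice as a covariate of the diet comparison, no diet covariate in the set comparison or each set fitted alone.

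Leaving out 1 mouse at a time gave 0 to 1 members called between the diets (1 without VDD_1 or VDS_2), 2 to 3 between the sets, 0 to 1 in the recorded set (0 without VDD_5 or VDD_6) and 0 to 1 for the interaction (1 without VDD_2). In each of these fits the spread was estimated from all mice left in it, also where a group held 2 or fewer. Values that changed sign in some of these fits had small fitted changes. Between the sets Ces3a ranged from -0.0198 to 0.145. In the mice without a recorded weight the ranges were -0.067 to 0.70 for Ces1b, -0.53 to 0.28 for Ces1d, -0.23 to 0.42 for Ces1f, -0.42 to 0.0136 for Ces2c and -0.0402 to 0.20 for Ces2e. For the interaction they were -0.29 to 0.48 for Ces1b, -0.70 to 0.0958 for Ces1d, -0.51 to 0.15 for Ces1f and -0.0843 to 0.25 for Ces3a.

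With the replicate number as a block, 0 members were called between the diets, and Ces2c had a log2-fold change of -1.03 (adjusted p = 0.0986). Same-numbered mice did not deviate together, so the numbers do not pair them. Counts over all genes moved more. Between the diets 5 genes were called in the main test, 17 with the block, 21 with the set as covariate, 253 with DESeq2, 70 with no filter and 2 with the robust fit. In the recorded set 154 became 348, 590 with no filter and 536 fitted alone, in the other set 4 became 44, 274 and 0, the interaction's 10 became 97 and 289, and between the sets 111 became 165, 202 and, with no diet covariate, 69, in each case with DESeq2 first. The cause of these shifts was not tested. Counts without strand kept the direction of all 8 differences of count ratios. Depth limits Ces2c most, and the 3 against 2 mice without a recorded weight limit the precision of that comparison.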
